A study of Homo sapiens with 2 samples.

Results

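The subject is the ZNF gene family of human chromosome 19, measured in RNA of MIA PaCa-2, a long-established line grown from a human pancreatic carcinoma, with the guide sgGFP or sgTPST2. The members are the genes of the deposited table whose symbol is ZNF plus digits (with an optional last letter from A to D), whose locus is on chromosome 19, and whose value reached 1 FPKM (sequenced fragments per kilobase of gene model, normalised for depth) in at least 1 of the 2 cultures. The rule took 191 of the 248 such symbols on the chromosome, out of 58698 genes in the table, and all 191 are protein-coding. The values that chose the members are their levels, so those levels are given as a description.

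The sgGFP culture is labelled WT and serves as the control, since human cells carry no GFP gene. The sgTPST2 culture is labelled TPST2 KD, a knockdown of a Golgi enzyme that sulfates tyrosines of secreted and membrane proteins. Both cultures are the same parental line, with total RNA libraries, and neither the delivery of the guides nor the number of clones is given in the sources used here. There was 1 library per condition, so no difference below has a replicate check or a test of its own.

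Most chromosome 19 ZNF genes encode KRAB zinc finger proteins. A row of C2H2 zinc fingers reads a DNA sequence, and the KRAB stretch at the other end binds the corepressor TRIM28 (KAP1), which brings the histone methyltransferase SETDB1 and heterochromatin proteins. The best known targets are retrotransposons. The genes arose by tandem duplication and still lie in clusters on the chromosome, where neighbours can have similar sequences and can come under shared chromatin.

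The targeted gene, TPST2, stood at 8.46 FPKM in sgGFP and 1.92 FPKM in sgTPST2, a ratio of 0.227 (0.178 to 0.286). From the smallest steps in low values, a gene of 1 FPKM had some 42.0 fragments for each kb in the sgGFP library and 47.8 in the other. All intervals below are exact 95% Poisson intervals for 1 kb of transcript, or for a ratio the exact binomial interval from the same fragments (a ratio with an interval is that of whole fragments per kb), and cover counting error only. Of the epithelial markers, the keratins KRT8, KRT18 and KRT19 were at 189 to 583 FPKM in sgGFP and 12.8 to 85.3 in sgTPST2. EPCAM is listed at 0 in both cultures, and CDH1 at 0 in sgGFP and 0.0524 in sgTPST2. Summed fibroblast, leukocyte and endothelial markers were at 29.1, 3.42 and 3.10 FPKM in sgGFP and 3.70, 1.51 and 0.282 in sgTPST2, with FAP, CD3E and PECAM1 listed at 0 in both. Nearly all of each sum came from 1 gene, COL1A2, CD68 and CDH5 respectively, and COL1A1 went the other way, from 0.0450 to 0.216 FPKM. The part of these markers in the ZNF values was not tested.

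The promoters of the members that differed by more than 1.5-fold and have an entry in the RefSeq table (build GRCh38.p14) are shown here because 2 of them belong to genes higher in sgTPST2 and 1 to the member listed at 0 there. Each is the stretch of 250 bases before a RefSeq start, 5′ to 3′ on the gene's strand, with CpG dinucleotides in capitals. These are the base pairs at which vertebrate promoters can be methylated. The window of ZNF583 lies inside its GENCODE gene model, which begins at 56397966, so it is not the stretch before that model.
ZNF528, plus strand, chr19:52397599-52397848: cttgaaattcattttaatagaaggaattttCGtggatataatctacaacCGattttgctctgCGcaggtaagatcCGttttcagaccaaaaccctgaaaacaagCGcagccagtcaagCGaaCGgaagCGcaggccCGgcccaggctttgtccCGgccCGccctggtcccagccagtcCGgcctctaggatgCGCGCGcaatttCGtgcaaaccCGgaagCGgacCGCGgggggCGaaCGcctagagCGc
ZNF583, plus strand, the first of 2 entries, chr19:56403764-56404013: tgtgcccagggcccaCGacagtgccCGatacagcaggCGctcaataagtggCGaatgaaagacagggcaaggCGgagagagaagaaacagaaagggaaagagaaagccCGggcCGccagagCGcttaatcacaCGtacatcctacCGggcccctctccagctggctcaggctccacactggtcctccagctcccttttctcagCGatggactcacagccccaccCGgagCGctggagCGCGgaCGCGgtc
ZNF625, minus strand, chr19:12156735-12156984: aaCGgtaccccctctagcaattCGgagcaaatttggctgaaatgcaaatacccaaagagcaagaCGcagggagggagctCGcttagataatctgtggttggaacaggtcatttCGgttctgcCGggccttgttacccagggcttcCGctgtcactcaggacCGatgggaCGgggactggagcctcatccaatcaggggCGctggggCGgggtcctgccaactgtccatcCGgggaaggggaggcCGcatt
These windows hold 23, 17 and 13 CpG, in that order. In the table's full windows of 300 bases (250 before and 50 after the start) the counts were 27, 23 and 16. The median was 14 over 27305 promoters taken once per symbol and 21 over the 172 members with an entry. The second entry of ZNF583, not shown, held 30. ZNF471 and ZNF738, the other 2 members past 1.5-fold, have no entry. The window of ZNF625 also lies just before the start, at 12156731, of ZNF625-ZNF20, a readthrough transcript on the same minus strand. That transcript was at 1.27 FPKM in sgGFP and 1.91 in sgTPST2, so the window is not that of a locus without output in sgTPST2.

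The family as a whole was close between the cultures. The difference is log2((sgTPST2 + 1)/(sgGFP + 1)) throughout, which makes differences of genes near 1 FPKM look smaller than their ratios. Its median over the 191 members was 0.04, with 105 members above 0 and 86 below, and 80% of them lay between -0.19 and 0.34. Over all 13420 genes at 1 FPKM or more the median was 0.00, with the same share between -0.42 and 0.38. Of the members, 154 (80.6%) were within 1.2-fold, against 66.5% of all these genes, 69.9% of protein-coding genes and 72.4% of the other protein-coding genes of chromosome 19.

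That closeness was shared with ZNF genes elsewhere in the genome. Of 198 genes of the same name pattern on other chromosomes at 1 FPKM or more, 80.8% lay within 1.2-fold, and their median was 0.00. At least 1.5-fold higher in sgTPST2 were 3 of the 191 chromosome 19 members, beside 4.41% of all genes, and 2 were at least 1.5-fold lower, beside 6.94%. Together these are 2.62% of the members, beside 11.3% of all genes, 9.07% of protein-coding genes, 7.2% of the other protein-coding genes of chromosome 19 and 4.04% of the ZNF genes on other chromosomes. None of the members was 2-fold higher, beside 1.61%, and 1 was 2-fold lower, beside 2.93%. With a pseudocount of 0.1 in place of 1, 7 members were 1.5-fold higher, beside 6.92% of all genes, and 2 were lower, beside 9.14%, together 4.71% of the members. On that scale 2 members were 2-fold higher and 2 were 2-fold lower, beside 3% and 4.85% of all genes.

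The share was also low within each of 2 ranges of level. Among members under 5 FPKM, 3 of 87 (3.45%) passed 1.5-fold, beside 15.5% of protein-coding genes between 1 and 5 FPKM. Among members at 5 FPKM or more, 2 of 104 (1.92%) did, beside 7.42% of protein-coding genes at that level.

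**Figure D1:**
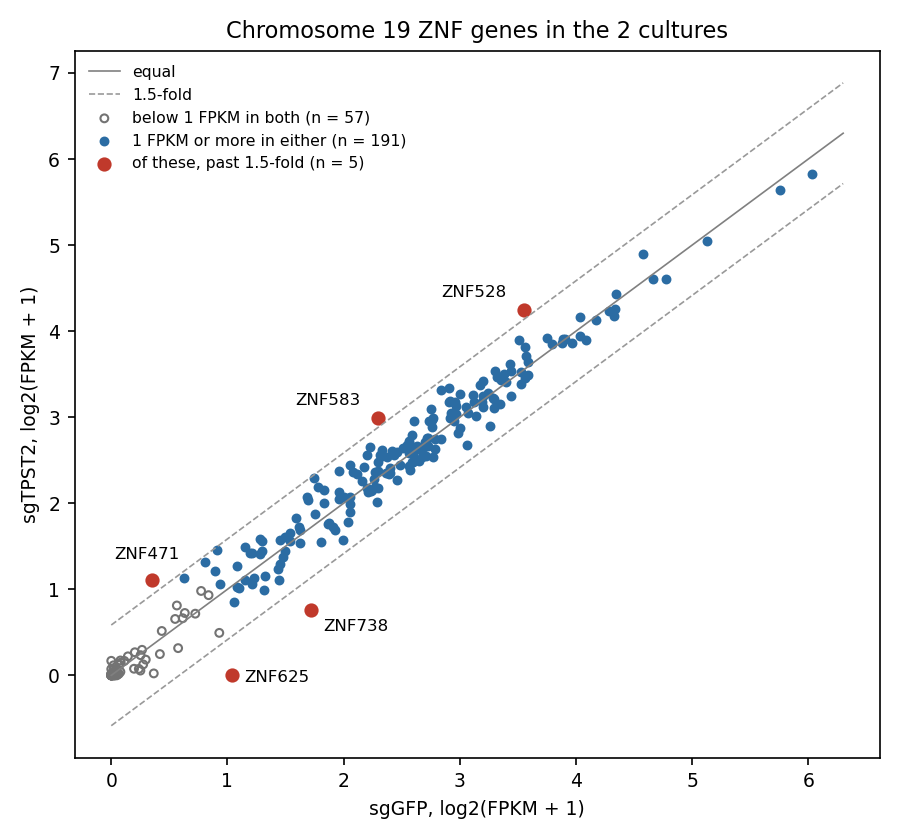
Levels of the 248 chromosome 19 ZNF genes in sgGFP (x axis) and sgTPST2 (y axis), both as log2(FPKM + 1), 1 point per gene and 1 library per axis. The line marks equal values and the dashed lines 1.5-fold; of the 191 members 5 lie outside the dashed lines, 3 above and 2 below.

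In the authors' deposited table, 0 of the 191 members have q under 0.05, beside 0.0915% of the 18574 tested genes called higher and 0.425% called lower. In the same authors' deposited table ZNF471 alone among them has an unadjusted p under 0.05, beside 3.19% of tested genes. The authors' deposited table gives ZNF471 p = 0.0171 and q = 0.878 from Cuffdiff, and every other member a q of 0.9997 or more.

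ZNF625 was the 1 member near 0 in a single culture, where near 0 means below 0.1 FPKM, beside 1.45% of all genes and 0.335% of protein-coding genes and 0.45% of the other protein-coding genes of chromosome 19 at 1 FPKM or more. It stood at 1.06 FPKM in sgGFP (0.761 to 1.41) and is listed at 0 in sgTPST2. A count of 0 over 1 kb would allow up to 0.0771 FPKM, but a value listed at 0 can also be a failed estimate. It was also the member closest to the threshold, followed by ZNF66 at 1.08 and 0.808 FPKM. Just outside were ZNF221 at 0.709 and 0.974 FPKM and ZNF296 at 0.787 and 0.908.

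The locus of ZNF625 (chromosome 19, 12142090 to 12156729, minus strand, GRCh38) is shared with other gene models. Of its 2204 exonic bases, 83.3% lie under exons of other genes on the same strand. These are ZNF625-ZNF20, a readthrough transcript that joins it to the next gene, and AC022415.1, a processed pseudogene at its end. ZNF625-ZNF20 stood at 1.27 FPKM in sgGFP and 1.91 in sgTPST2, higher where ZNF625 is listed at 0. AC022415.1 stood at 1.14 and 0.0156 FPKM, near 0 in the same culture as ZNF625. The sum of ZNF625 and the readthrough was 2.33 FPKM in sgGFP and 1.91 in sgTPST2, a difference of -0.19, inside 1.5-fold. With AC022415.1 added the sum was 3.47 FPKM in sgGFP and 1.93 in sgTPST2, a difference of -0.61, past 1.5-fold. How the fragments were divided between these models was not tested.

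No separate gene beside ZNF625 shared its zero. ZNF20, 1.68 kb to the left, stood at 2.01 FPKM in sgGFP and 2.54 in sgTPST2. ZNF136, 6.34 kb to the right, stood at 4.48 and 3.83, and ZNF44 beyond it at 3.23 and 4.14. ZNF844 on the left was low in both cultures, at 0.0256 and 0.0338 FPKM.

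ZNF738 was the other member at least 1.5-fold lower. It lies on chromosome 19 from 21358930 to 21379302 (plus strand), and none of its exons lies under another gene. It stood at 2.29 FPKM in sgGFP (1.85 to 2.79) and 0.690 in sgTPST2 (0.475 to 0.969), and it passed the threshold of 1 FPKM only through sgGFP, where it is high. The ratio of the fragments was 0.302 (0.197 to 0.453). GENCODE's coding models of ZNF738 hold a KRAB-like stretch, at most 137 amino acids and 0 zinc finger matches.

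The coding neighbours of ZNF738 did not share that direction. ZNF708, 29.5 kb to the left, was at 3.68 FPKM in sgGFP and 5.28 in sgTPST2, the 10th largest difference upward among members. ZNF493, 17.8 kb to the right, was at 3.83 and 4.15, and ZNF429 at 4.85 and 5.39. Just after ZNF738 lie the pseudogenes AC010615.3, at 0.115 FPKM in sgGFP and listed at 0 in sgTPST2, and AC010615.1, at 0.375 and 0.145. Both values were lower in sgTPST2, and both genes were below 1 FPKM throughout.

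ZNF471, a KRAB zinc finger gene known to be silenced by promoter methylation in several carcinomas, had the largest difference upward. It stood at 0.275 FPKM in sgGFP (0.148 to 0.499) and 1.16 in sgTPST2 (0.866 to 1.496), a difference of 0.76. The ratio of the fragments was 4.02 (2.13 to 8.26). It therefore passed the threshold of 1 FPKM only through sgTPST2, where it is high.

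ZNF583, in the same cluster, was higher too. It stood at 3.92 FPKM in sgGFP (3.35 to 4.57) and 6.95 in sgTPST2 (6.23 to 7.75), a ratio of 1.77 (1.47 to 2.15). The 2 genes lie 71.8 kb apart on the plus strand of chromosome 19, at 56397966 to 56436035 and 56507843 to 56530221. The genes between them were silent. Between them ZNF667 was at 0.00467 FPKM in sgGFP and listed at 0 in sgTPST2, and its antisense partner ZNF667-AS1 is listed at 0 in both.

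The coding genes to the right of this pair were near equal. ZFP28, 8.73 kb to the right of ZNF471, stood at 2.59 and 2.66 FPKM, ZNF470 at 2.37 and 2.68, and ZNF71 at 4.51 and 5.03. On the left of ZNF583, ZNF582, a gene known for promoter methylation in cervical cancer, stood at 0.190 FPKM in sgGFP and 0.0394 in sgTPST2.

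ZNF528 was the third member past 1.5-fold upward and the one at the highest level. It lies at 52397849 to 52418412 on the plus strand and stood at 10.7 FPKM in sgGFP (9.77 to 11.8) and 18.0 in sgTPST2 (16.8 to 19.2). The ratio was 1.68 (1.49 to 1.88). Its start is 83 bases from that of ZNF528-AS1, a transcript running the other way, so the window shown above covers the gap between the starts and reaches into ZNF528-AS1. ZNF528-AS1 was at 1.32 FPKM in sgGFP and 2.13 in sgTPST2, higher in the same culture.

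To the left of ZNF528 the 3 nearest coding genes were higher to a smaller degree. ZNF480 stood at 10.4 FPKM in sgGFP and 13.9 in sgTPST2, ZNF880 at 1.22 and 1.82, and ZNF610 at 1.46 and 1.72. Beyond them ZNF766 went the other way, at 16.0 FPKM in sgGFP and 13.9 in sgTPST2. To the right, ZNF534 and ZNF578 were below 0.1 FPKM in both cultures and ZNF808 was at 5.40 and 5.24.

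**Figure D2:**
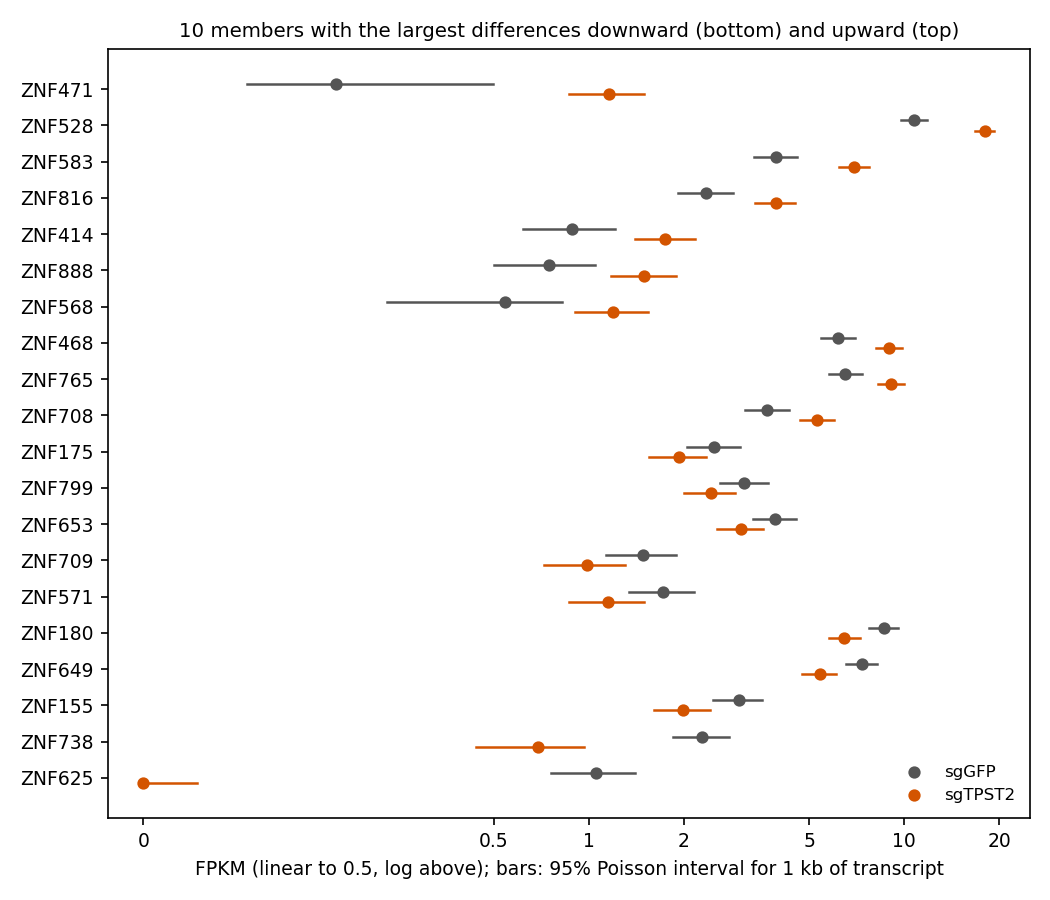
The 10 members with the largest differences downward (bottom) and upward (top), with FPKM on the x axis (linear to 0.5, logarithmic above), grey points for sgGFP and orange for sgTPST2, and bars for the 95% Poisson interval of 1 kb of transcript. ZNF625 sits at 0 in sgTPST2, and the bars of ZNF175, ZNF799, ZNF653, ZNF709 and ZNF571 overlap.

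The rest of the 20 largest differences were inside 1.5-fold on this scale. Upward they were ZNF816 (2.35 FPKM in sgGFP and 3.91 in sgTPST2), ZNF414, ZNF888, ZNF568, ZNF468, ZNF765 and ZNF708, with differences from 0.42 to 0.55. ZNF414, ZNF888 and ZNF568 were below 1 FPKM in sgGFP, where this scale makes differences look smaller. Their ratios of fragments were 1.99 (1.34 to 3.02), 2.04 (1.32 to 3.22) and 2.18 (1.32 to 3.70). Downward they were ZNF155 (2.98 and 1.99 FPKM), ZNF649 (7.35 and 5.40), ZNF180 (8.60 and 6.46), ZNF571, ZNF709, ZNF653, ZNF799 and ZNF175, with differences from -0.42 to -0.25. The ratios of ZNF155, ZNF571 and ZNF709 were 0.667, 0.671 and 0.666. ZNF649 is known as a repressor of growth factor signalling to serum response elements, and ZNF175 as a repressor of a viral promoter. Of the exonic bases of ZNF155, 41.4% lie under the antisense gene AC006213.1, whose reads cannot be told apart from it unless strand was used in counting. For ZNF175 and ZNF799 the interval of the ratio, taken for 1 kb of transcript, included 1. Their gene models hold 7396 and 5055 exonic bases, so an interval from all of their fragments could be narrower.

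Members that reached 1 FPKM in 1 culture alone numbered 10 of 191. Reaching it in sgGFP alone were 4 (ZNF625, ZNF738, ZNF709 and ZNF66), and in sgTPST2 alone 6 (ZNF284, ZNF382, ZNF568, ZNF888, ZNF414 and ZNF471). Of all 13420 genes at 1 FPKM or more, 657 reached it in sgGFP alone and 562 in sgTPST2 alone. Among the 11048 protein-coding ones these numbers were 292 and 201. The 10 members passed the rule through the culture where they were higher. Of the 181 members at 1 FPKM or more in both cultures, 2 were 1.5-fold higher (ZNF528 and ZNF583), beside 3.02% of all genes at that level in both, and 0 were lower, beside 4.7%.

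The order of levels within the family was kept between the cultures. Across the 191 members, log2(FPKM + 1) in one culture against the other had Pearson's r of 0.970 and Spearman's rho of 0.973, a description across genes of 2 libraries made and processed alike. The highest members were ZNF146, a finger protein without KRAB, at 64.4 FPKM in sgGFP and 55.9 in sgTPST2, and ZNF121 at 52.9 and 49.0. ZNF544 followed at 33.9 and 31.9, ZNF83 at 22.8 and 28.7, and ZNF91 at 26.4 and 23.4. The median member stood at 4.94 FPKM in sgGFP and 5.01 in sgTPST2, and 104 of 191 reached 5 FPKM.

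Members with a known role were chosen from background knowledge, after earlier results of these data were known. The retrotransposon repressor ZNF91, which silences SVA and LINE-1 elements, had a ratio of 0.884 (0.813 to 0.961). ZNF274, which binds the ends of zinc finger genes and recruits SETDB1 there, was at 19.2 FPKM in sgGFP and 18.1 in sgTPST2. ZNF808, required for development of the human pancreas, had a ratio of 0.971 (0.808 to 1.17).

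The HERV-K repressors ZNF417 and ZNF587 stood at 5.40 and 4.82 FPKM, and at 9.85 and 10.6. They are close copies, with 37.7% of the sampled 50-base words of ZNF417 also present in other genes, nearly all of them in ZNF587, and how their shared reads were divided is uncertain. ZNF382, a repressor known to be silenced by methylation in several carcinomas, was at 0.853 FPKM in sgGFP and 1.31 in sgTPST2, a ratio of 1.54 (1.005 to 2.38), and passed the threshold through sgTPST2. ZNF350, a partner of BRCA1, was at 2.80 and 2.23, and the imprinted gene ZNF331 at 5.73 and 7.53. Below the threshold in both cultures were the LINE-1 repressor ZNF93, at 0.490 and 0.245 FPKM, and ZNF534, which represses endogenous retroviruses in early embryonic cells.

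The family falls into 20 groups along the chromosome when genes less than 500 kb apart are joined, and 8 of these hold at least 10 members, 172 in all. The medians of those 8 lay between -0.10 and 0.15. The lowest was the group from 11.5 to 12.6 Mb, with 19 members, 8 above 0 and 11 below. It held 4 of the 10 largest differences downward, ZNF625, ZNF709, ZNF653 and ZNF799. Of the exonic bases of ZNF709, 79.2% lie under other gene models, and 20.3% of the words of ZNF799 occur in genes elsewhere. The highest was the group from 51.6 to 53.6 Mb, with 29 members, 20 above 0 and 9 below. Of all 191 members, 105 were above 0 and 86 below. Both groups were picked by their medians, so their counts above and below 0 follow partly from that choice. The group from 51.6 to 53.6 Mb held 5 of the 10 largest upward, ZNF528, ZNF816, ZNF888, ZNF468 and ZNF765.

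That group was not uniform. It also held ZNF649 and ZNF175 of the largest differences downward, and its members ranged from -0.38 to 0.69. The 3 other protein-coding genes in the same stretch at 1 FPKM or more had a median of 0.29. In the group from 11.5 to 12.6 Mb the 3 other genes had one of 0.11, against -0.10 for its members. By name, type, place and level these 3 include the readthrough ZNF625-ZNF20, with a difference of 0.36. It shares 1404 exonic bases with the member ZNF625 and 2212 with the member ZNF20. These genes are therefore not separate from the members, and the contrast was not tested without the readthrough. In the group of ZNF649 and ZNF175, some members share sequence or exons. Of the words of ZNF888, 16.9% occur in genes elsewhere. Of the exonic bases of ZNF468, 53.3% lie under other gene models, mostly ZNF320, which was below 0.1 FPKM in both cultures. The largest group, from 57.2 to 58.5 Mb, had 37 members with a median of 0.02. None of them passed 1.5-fold in either direction, beside 2.62% of all members and 11.3% of all genes. None did so either in the groups from 8.5 to 9.8, 36.2 to 37.8 and 43.5 to 44.5 Mb.

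**Figure D3:**
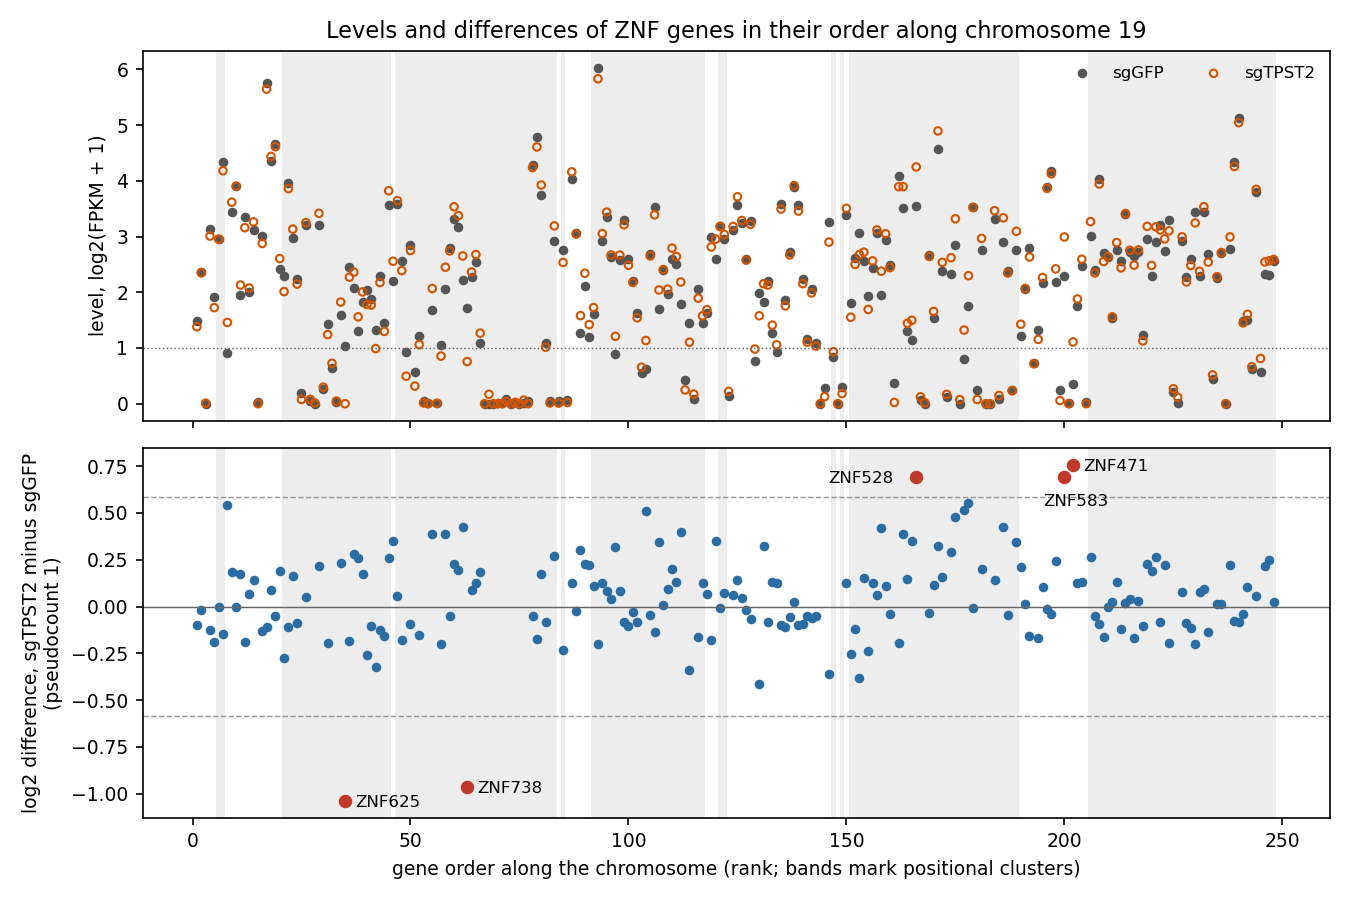
Levels (top, log2(FPKM + 1), grey for sgGFP and orange for sgTPST2) and differences of the members (bottom, log2, sgTPST2 minus sgGFP) against the rank of the 248 genes along chromosome 19, with 1 point per gene and culture, bands for alternate positional groups, a dotted line at 1 FPKM and dashed lines at 1.5-fold. The 5 members past 1.5-fold are named, and the run of 11 genes near 0 in both cultures stands out in the top panel.

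The genes of the family that stayed below 1 FPKM were mostly silent in both cultures. They number 57, of which 55 are protein-coding, and 32 were below 0.1 FPKM in both. In order along the chromosome, 11 of them follow each other without an expressed member between them, from ZNF43 to ZNF730 (21.8 to 23.1 Mb). In this run ZNF43, ZNF257, ZNF492 and ZNF723 are listed at 0 in both, and the highest value was 0.124 FPKM, for ZNF208 in sgTPST2. The next longest run held 3 genes. The next 2 genes after the silent run are ZNF724, at 18.5 FPKM in sgGFP and 17.9 in sgTPST2, and ZNF91, one of the 5 highest members. The run and these 2 genes belong to the group from 19.7 to 24.1 Mb, where 20 of 37 genes reached 1 FPKM. Of the exonic bases of ZNF724, 44.8% lie under another gene model, AC092329.3. In the run, 58.5% of the words of ZNF98 and 33.6% of those of ZNF492 occur elsewhere, mostly in each other. How such shared reads were divided was not tested.

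Features that the rule did not use were read from sequence. A KRAB-like stretch was found in the GENCODE coding sequences of 160 of the 191 members (83.8%) and in 45 of the 55 coding genes below the threshold (81.8%). Members with the stretch had a median difference of 0.04 and those without it 0.02. All 5 members past 1.5-fold had it, 3.13% of the 160, and 0 of the 31 members without it passed, beside 2.62% of all members. At that share, counts this small cannot tell the 2 sets apart. The members had a median of 12 zinc finger matches, and ZNF91 had the most, with 31.

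Promoters of the family held a median of 20 CpG per 300 bases, against 14 over all promoters taken once per symbol. The upper quartile was 26 in members and 28 over all promoters. The set of all promoters was not limited by gene type or level, and expressed coding genes alone were not compared. Of the 248 genes, 215 matched the RefSeq promoter table. The 172 matching members had a median of 21 CpG per 300 bases and the 43 genes below the threshold one of 16, while 48.8% of all promoters and 77.3% of the members' held at least 15. The genes below the threshold also spread more widely, from 8 to 49 CpG.

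**Figure D4:**
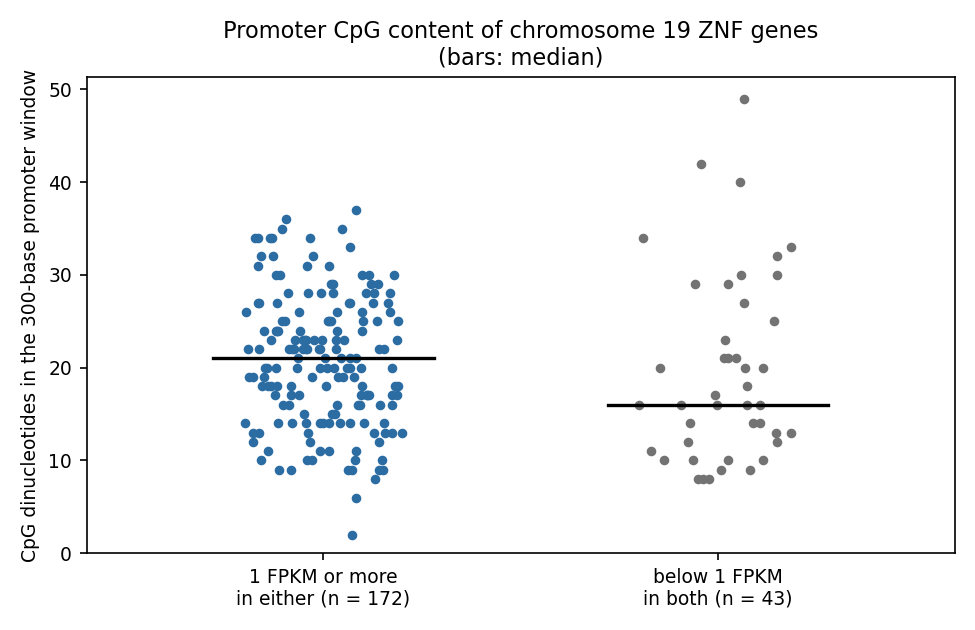
CpG dinucleotides (C followed by G on one strand) in the 300-base promoter window, 1 point per gene, for the 172 members and the 43 genes below 1 FPKM in both cultures that have an entry, with bars at the medians of 21 and 16. The 2 clouds overlap over most of their range.

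Among 24 listed genes of KRAB corepressors and of silencing factors that work with them, 1 differed by more than 1.5-fold. The list also holds DNA methylation genes and is wider than the route through TRIM28 and SETDB1. All 24 listed genes reached 1 FPKM, 23 were within 1.5-fold, 0 were higher and 1 was lower, with a median of -0.03, beside 4.41% and 6.94% of all genes at 1 FPKM or more. TRIM28 itself, which also lies on chromosome 19, stood at 477 FPKM in sgGFP and 468 in sgTPST2. SETDB1 stood at 27.5 and 27.2, the heterochromatin protein genes CBX1, CBX3 and CBX5 at 67.7 and 65.7, 282 and 290.2, and 11.6 and 14.4, and the maintenance DNA methyltransferase DNMT1 at 68.5 and 71.8.

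EHMT1, a histone methyltransferase, was the 1 listed gene past 1.5-fold, at 214 FPKM in sgGFP and 26.4 in sgTPST2. The authors' deposited table gives it p = 0.157 and q = 0.9997. The annotation has 52 transcripts of EHMT1 from 86 to 7842 bases long, 19 of them under 500 bases, and the table gives only their sum, so which of them differ was not tested. Its partner EHMT2 was at 16.5 and 13.97 FPKM. ATF7IP, which stabilises SETDB1 and lies on chromosome 12, was at 33.6 and 25.6.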

How the data were processed

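The submitters' processing notes name STAR, Cuffdiff and hg38. Their versions, the annotation and the strand setting were not given in the sources used. The deposited table gives 1 value per gene and culture, read here as FPKM because Cuffdiff reports that unit and the header names none. The authors' p-value and q-value were copied, the authors' test statistic (a score) was not used, and the authors' log2 fold change equals the one recomputed with a pseudocount of 1. All 58698 identifiers matched GENCODE 29 (GRCh38), which gave positions.

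The members, gene lists and rules were chosen with earlier results of these data known. Named are members below 0.1 FPKM in 1 culture and at least 1 in the other, with their coding neighbours. Also named are the 10 largest differences each way, the 5 highest levels and the 2 members nearest the threshold on each side. Listed corepressor and silencing genes 1.5-fold apart are named too. The neighbours of ZNF738, ZNF471, ZNF528 and ZNF583, the members with a known role and other listed genes were named after their values were seen. No protein table was used: fingers and KRAB-like stretches are pattern matches in translated GENCODE coding sequences, a replacement for the planned source, and miss divergent copies. Words of 50 bases were sampled every 10 bases of the longest transcript and looked up in all other genes' transcripts. Depth was fitted on genes with 1 transcript over 1500 bases, where 90.3% of 1049 low values in sgGFP and 91.4% of 1031 in sgTPST2 lay within 0.1 of a whole fragment. Fold counting and the depth fit were tested on simulated data. Python 3.11.15, pandas 2.3.3, SciPy 1.17.1 and Biopython 1.88 were used.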

Additional observations from a re-analysis of the deposited data

How the results depend on the processing

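No paired analysis was possible because there was only 1 library for each guide, which also leaves no replicate to leave out. Scaling to the same upper quartile, to the same sum or to a median of 0 put the median of all genes at 0.0115 at most and moved none of the 25 members' differences recomputed by more than 0.0129. Of 63 comparisons of group values with an alternative, 55 stayed within bounds (a count by 1.5 times, a median by 0.1). With a pseudocount of 0.1, 7 members were 1.5-fold higher, 2 were 2-fold higher and 2 were 2-fold lower. Of all genes at 1 FPKM or more, 6.92%, 3% and 4.85% were so, since that scale gives low genes more weight. Among members at 5 FPKM or more, 0 were 1.5-fold lower and 0 were 2-fold lower. Without genes listed at 0, which drops ZNF625, 1 was 1.5-fold lower and 0 were 2-fold lower. With 2 FPKM required in the other culture, 0 members were near 0 in 1 culture. That pseudocount, which cannot change a sign, moved 11 of these 25 differences by more than 0.1, among them ZNF625 to -3.53 and ZNF471 to 1.74. Depth limits members near 1 FPKM, which rest on about 42.0 fragments per kb in sgGFP.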

Other observations

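Zinc finger genes of chromosome 19 with other names were close between the cultures too. There were 15 coding genes named ZFP, ZSCAN, ZIK, ZIM or PEG3 (leaving out ZFP36, which belongs to another family). Of these, 7 reached 1 FPKM, with a median of 0.03 and a range from -0.06 to 0.20. None of the 7 was 1.5-fold apart, beside 11.3% of all genes and 7.2% of the other protein-coding genes of chromosome 19. So few genes cannot be told apart from those shares. The non-coding gene AC005498.2, chosen after its values were seen, lies 5.94 kb to the right of ZNF471 on the opposite strand and went the other way, at 0.891 FPKM in sgGFP and 0.142 in sgTPST2.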
